A study of Mus musculus with 90 samples.

Results

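Histone variants and linker histones were followed through 10 genes: the linker histones H1foo, H1f0 and H1fx, the H3.3 genes H3f3a and H3f3b, the H2A variants H2afx, H2afz, H2afv and H2afy, and the centromeric H3 variant Cenpa. They were taken from the count table by gene symbol. All 10 were among its 24422 genes and all 10 were among the 16511 genes tested. H1fx was close to absent, with between 1 and 7 counts in any group.

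Most histone proteins are made in S phase from genes without introns, whereas replacement variants can be made and deposited throughout the cell cycle. H3.3 is laid down at active genes and on the sperm genome after fertilization, H2A.Z marks promoters, macroH2A is enriched on silent chromatin, H2AX is phosphorylated beside DNA breaks, and CENP-A marks the centromere. H1foo is the linker histone of the oocyte, known to give way to somatic linker histones as the embryo activates its own genome. In the mouse that activation has its main wave at the 2-cell stage.

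The libraries were single mouse cells or embryos of the CD-1 strain, sequenced by STRT, which primes on poly(A) and counts RNA 5′ ends by molecular identifier, so a count was taken as 1 RNA whatever the gene's length. Plag1 KO and WT sexually mature females were superovulated. Unmated MII oocytes were collected 21 to 23 h after hCG, so that WT oocytes came from WT females and KO oocytes from KO females. For the later stages both kinds of female were mated with WT males and their zygotes cultured in KSOM medium until 45 to 47 h (2-cell, 2c) or 71 to 73 h (8-cell, 8c) after fertilization. The embryos of KO females (matPlag1KO) therefore lacked maternal Plag1 but carried a WT paternal copy. The donor female of each library is not named in the labels, so p-values measure the spread between single oocytes or embryos, some of which may share a mother.

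Of 90 libraries, 78 were kept: 16 WT and 14 KO MII oocytes, 11 WT and 11 matPlag1KO 2c embryos, and 15 WT and 11 matPlag1KO 8c embryos. They held 92475 to 2502421 gene counts, and 3 counts, the limit that a count of 0 allows, amounted to 20.2 CPM (a library's counts scaled to a common total of gene counts) at the median depth of WT 2c embryos against 4.62 CPM in KO oocytes. The libraries were made in 2 pools, A and B, both holding every group. Plag1 itself had 326 counts in 16 of 16 WT oocytes and 4 counts in 3 of 14 KO oocytes. At 2c it went the other way, with 1 count in 1 of 11 WT embryos and 91 counts in 9 of 11 embryos labelled matPlag1KO, so these are called KO-labelled 2c embryos here. At 8c it had 10 counts in WT and 6 in matPlag1KO embryos. Summed oocyte markers (8 genes such as Gdf9 and Zp3, all 8 with counts at MII and 2c) had medians of 5824, 3332 and 72.9 CPM in WT at MII, 2c and 8c, against 14307, 4778 and 115 CPM in the KO groups. The 12 cumulus and granulosa markers summed to between 12.01 and 363 CPM in WT oocytes and between 33.1 and 206 CPM in KO oocytes, with Amh, Ptx3, Tnfaip6 and Foxl2 at 0 in both. By median the sum was 116 CPM in WT and 120 CPM in KO oocytes, and 341 and 576 CPM in WT 2c and 8c embryos. It therefore does not measure cumulus cells alone.

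Some libraries stood apart. WT oocytes of pool B all had little H1foo, as given with that gene. Among 2c embryos, WT replicate libA.D4 had the lowest CPM of its group for 5 of the 10 genes (H3f3a, H3f3b, H2afz, H2afv and Cenpa), and KO-labelled replicate libA.D6 had the highest of its group for 4 of them (H3f3a, H3f3b, H2afz and H2afv) with no Plag1 count. As 9 of 11 KO-labelled embryos had a Plag1 count, libA.D6 was not the only one without. For the genes named for it, each of libA.D4 and libA.D6 lay nearer to the median of the other genotype than to that of its own. These are the genes in which the embryo was the extreme of its group. In Cenpa, libA.D6 had 415 CPM, nearer to the KO-labelled median (259 CPM) than to the WT median (841 CPM). Embryos had been picked on 3 occasions, and the labels do not give the occasion of each library. Each 2c comparison was therefore also run without each 2c library in turn.

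The 250 bases before the annotated start are shown for the 3 genes on which the results turn, H1foo, the gene that left the oocyte pool most steeply, and Cenpa and H2afz, which were lower together in the KO-labelled 2c embryos. They were read from the mm9 genome at the start sites of the count table, 5′ to 3′ on the strand of the gene. Capitals mark a CCAAT box (CCAAT or, on the other strand, ATTGG) or the E-box CACGTG.
H1foo, chr6:115894699-115894948, + strand: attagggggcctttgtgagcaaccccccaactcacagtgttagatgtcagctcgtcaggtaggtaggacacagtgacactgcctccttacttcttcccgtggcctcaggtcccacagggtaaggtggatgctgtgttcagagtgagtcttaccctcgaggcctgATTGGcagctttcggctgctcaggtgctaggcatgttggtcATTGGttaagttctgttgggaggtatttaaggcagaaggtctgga
Cenpa, chr5:30969009-30969258, + strand: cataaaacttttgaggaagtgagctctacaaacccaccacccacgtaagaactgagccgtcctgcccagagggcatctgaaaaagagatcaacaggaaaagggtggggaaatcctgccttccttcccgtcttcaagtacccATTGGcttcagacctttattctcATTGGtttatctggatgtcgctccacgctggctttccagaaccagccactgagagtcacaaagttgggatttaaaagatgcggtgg
H2afz, chr3:137527201-137527450, + strand: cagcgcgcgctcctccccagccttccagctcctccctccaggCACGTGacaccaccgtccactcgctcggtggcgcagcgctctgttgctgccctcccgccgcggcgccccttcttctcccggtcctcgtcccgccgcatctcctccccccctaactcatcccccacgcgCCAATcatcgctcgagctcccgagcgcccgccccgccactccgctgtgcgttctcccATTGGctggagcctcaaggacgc

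Each of these windows held 2 CCAAT boxes: at 86 and 45 bases before the start in H1foo, at 109 and 86 in Cenpa and at 80 and 23 in H2afz, counted to the first base of the match. Of the 10 genes, 7 had at least 1 CCAAT box in this window, as did 35.2% of 24323 genes. CACGTG was found only in the H2afz window of the 10, and in 6.6% of all windows. The TATA box (TATAAA) was found in 2 of the 10 (H3f3b and H2afx) and in 12.1% of all windows, the cell-cycle element TTTGAA in 2 (H2afx and H2afv) and in 14.4%, and TTCGAA in none of the 10 and in 1.5%. The bipartite PLAG1 consensus was found in the windows of H3f3a, H2afx and H2afy and in 19.7% of all windows, and from 2000 bases before to 500 after the start in 8 of the 10 genes and in 63.7% of all. Cenpa and H1fx were the 2 without it there. The longer de novo PLAG1 motif of the study was not searched. The windows also differed in base composition: H2afz had 71.2% GC with a ratio of observed to expected CpG of 1.05, H1foo 53.2% and 0.231, and Cenpa 48.8% and 0.404, against medians of 54.8% and 0.509 over all windows. These matches describe the letters and were not tied to binding here.

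The first question was how each gene's RNA changed from the oocyte to the 8-cell embryo. Because total mRNA differs between stages, levels are given as counts per 100 counts of the spike-in RNA added in equal amount to each library, and tests used the spike-in total as library size (edgeR quasi-likelihood test, adjusted over all 16511 genes). On this scale the median of all genes fell by 1.46 on the log2 scale from MII to 2c in WT and by 1.42 in matPlag1KO, and was 0.53 and 0.30 higher from 2c to 8c, and the genes are read against those shifts.

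In WT, 4 of the 10 genes rose and 4 fell between the oocyte and 2c, where 14.1% of all genes rose and 51.3% fell. H2afz, H2afv, Cenpa and H3f3a rose. H1foo, H2afy, H1f0 and H3f3b fell. In KO oocytes against KO-labelled 2c embryos, H2afz and H2afv rose (13.5% of all genes rose) and H1foo, H2afy, H3f3b and H1f0 fell (50.3% of all fell). From 2c to 8c in WT, H2afx, H2afy and H3f3a rose, where 31.9% of all genes rose, and H1fx fell, where 16.2% of all fell. In matPlag1KO, H2afy, H2afx, H3f3a, H2afz and H3f3b rose from 2c to 8c (29.1% of all genes rose) and H1foo fell (19.5% of all fell).

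With TMM scaling in place of spike-ins the median over all genes moved from -1.46 to -0.03 (WT) and from -1.42 to 0.14 (matPlag1KO) for MII to 2c, and from 0.53 to -0.12 and from 0.30 to -0.31 for 2c to 8c, and several of these results differed. From MII to 2c in WT, H2afy and H1f0 were no longer called (-1.56 and -0.65, adjusted p = 0.0893 and 0.349), H3f3b turned to 0.30, and H1fx was called at 2.48 on its few counts. In matPlag1KO over the same step, Cenpa (1.26), H3f3a (1.60) and H2afx (1.85) were called higher, and H3f3b (-0.30) and H1f0 (0.43) were no longer called. From 2c to 8c in WT, Cenpa (-1.29), H2afz (-0.57), H2afv (-1.06), H3f3b (-0.99) and H1foo (-2.02) were called lower and H3f3a was no longer called (0.48). Over that step in matPlag1KO, H2afz and H3f3b lost their calls (0.40 and 0.02), and H1f0 (-1.75) and H2afv (-1.17) were called lower.

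**Figure D1:**
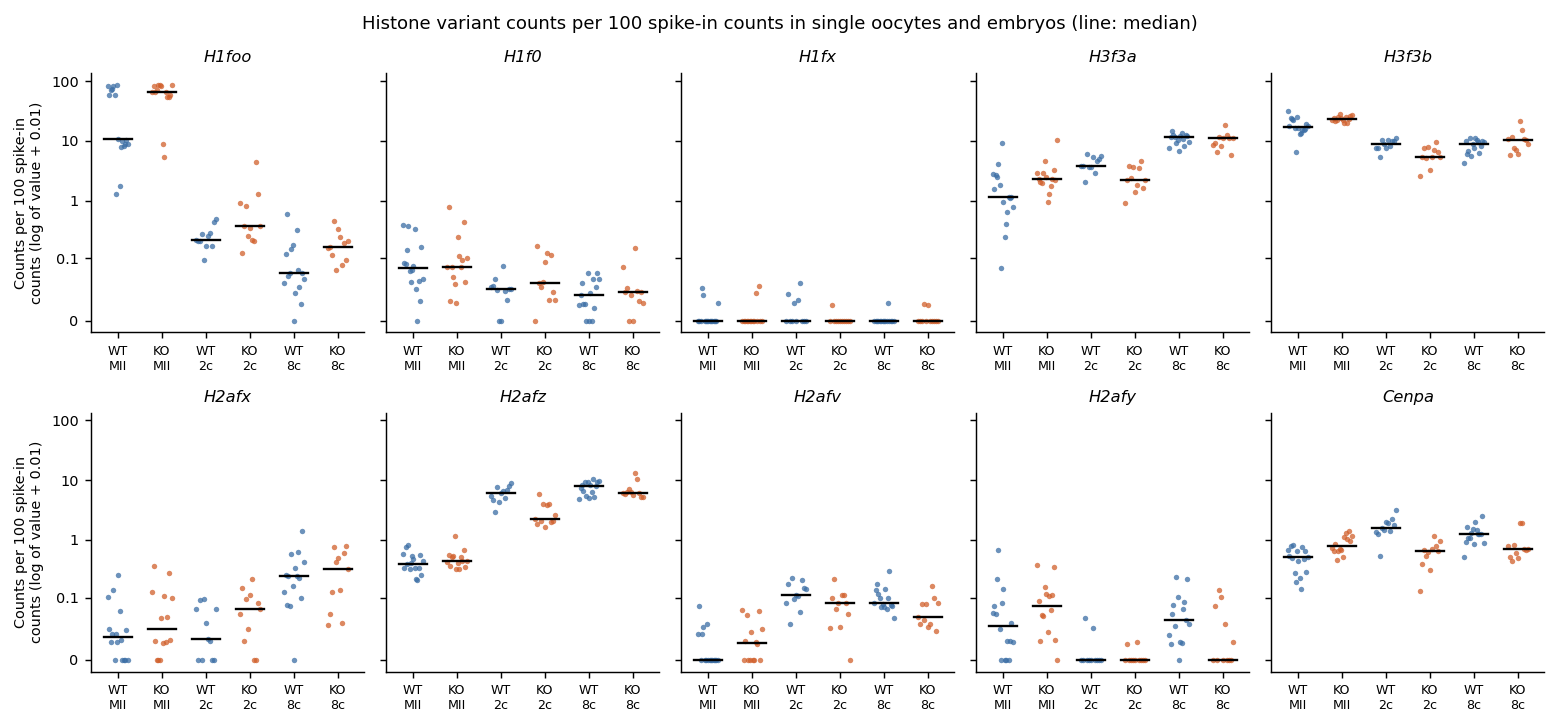
Counts per 100 spike-in counts (log axis of the value + 0.01) of the 10 genes in each kept library, by stage and genotype, with WT in blue and KO or matPlag1KO in orange; each point is 1 oocyte or embryo and the line is the group median. H1foo spans 1.29 to 84.7 in WT oocytes and 0 to 0.594 in WT 8c embryos, whereas H2afz goes from a WT median of 0.392 in oocytes to 8.06 at 8c.

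H1foo showed the steepest fall of the 10 genes between the oocyte and 2c. In WT it had 1.29, 10.6 and 84.7 counts per 100 spike-in counts (lowest, median and highest oocyte), then 0.0940, 0.210 and 0.491 at 2c, and 0, 0.0528 and 0.594 at 8c. Every WT oocyte lay above every WT 2c embryo, while the 2c and 8c ranges overlapped. The fall from MII to 2c was -7.17 ± 0.69 (log2, SE, n = 16 and 11; adjusted p = 2.85e-15), and the difference from 2c to 8c was -1.15 ± 0.52 (adjusted p = 0.0599), which did not pass the threshold. The second passed with pool as a term (-1.44), in pool B alone (-2.03), with all libraries that had a spike-in count (-1.65) and with TMM, and was -0.40 in pool A. In KO oocytes H1foo had 5.40, 65.6 and 85.8 counts per 100 spike-in counts, then 0.122, 0.370 and 4.43 in KO-labelled 2c embryos and 0.0594, 0.157 and 0.445 at 8c. It fell by 6.19 ± 0.66 between the first pair (adjusted p = 2.61e-13) and by 2.17 ± 0.57 between the second (adjusted p = 0.00105). The second fall was -0.16 and not called when all libraries with a spike-in count were kept.

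H1foo split the oocytes into a high and a low set with nothing between. Among WT oocytes, 7 of 8 in pool A had more than 50 counts per 100 spike-in counts and the remaining 1 had 1.29, whereas all 8 in pool B had fewer than 11. Among KO oocytes, all 7 of pool A and 5 of 7 in pool B were above 50, and the remaining 2 were below 11. Counts of all genes per 100 spike-in counts moved in the same direction, with medians of 7280 and 3206 in WT oocytes of pools A and B and 6922 and 5953 in KO oocytes. The part of depth or pool in this split was not tested.

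H1f0, a linker histone of cells that leave the cell cycle, was low throughout. WT oocytes had 0, 0.0658 and 0.389 counts per 100 spike-in counts, WT 2c embryos 0, 0.0231 and 0.0717, and WT 8c embryos 0, 0.0173 and 0.0530. All 3 ranges overlapped and reached 0. The gene fell from MII to 2c by 2.23 ± 0.65 in WT (adjusted p = 0.00197, not called with TMM) and by 1.38 ± 0.61 in matPlag1KO (adjusted p = 0.0426), the second turning to 0.43 with TMM scaling in place of spike-ins. H1fx, a ubiquitous linker histone, had 6 counts over 16 WT oocytes, 7 over 11 WT 2c embryos and 1 over 15 WT 8c embryos. It was called lower at 8c than at 2c, but on 7 counts against 1, a ratio of 11.6 per spike-in count with an exact 95% interval of 1.49 to 522 that covers counting error only.

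As a share of all linker histone counts in a library (H1foo, H1f0, H1fx and 6 Hist1h1 genes), H1foo took 91.8 ± 17.0% in WT oocytes (SD, n = 16), 45.8 ± 20.7% at 2c (n = 11) and 19.8 ± 21.1% at 8c (n = 15). A share within a library needs no scaling. The difference was -46.1 percentage points from MII to 2c, with p = 2e-05, the smallest that 100000 resamples of a two-sided permutation test can give (adjusted p = 1e-04 over 15 share tests), and -25.9 points from 2c to 8c (adjusted p = 0.0234). Shares in matPlag1KO were 96.3, 58.4 and 31.2%, and differed from WT by 4.53, 12.7 and 11.4 points, none of which passed (adjusted p = 0.484, 0.311 and 0.311). Most Hist1h1 RNAs lack poly(A), so this share is of polyadenylated RNA only.

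The H3.3 genes, which encode the same protein, took different courses. H3f3b had 6.59, 16.9 and 31.9 counts per 100 spike-in counts in WT oocytes, 5.46, 9.01 and 11.4 in 2c embryos, then 4.30, 8.94 and 11.3 at 8c. H3f3a had 0.0668, 1.14 and 9.08 in WT oocytes, 2.05, 3.77 and 6.02 in 2c embryos, then 6.88, 11.5 and 14.5 at 8c. Every WT 8c embryo thus exceeded every WT 2c embryo in H3f3a, while H3f3b at 2c and 8c covered nearly the same range. H3f3b fell from MII to 2c by 1.06 ± 0.23 in WT (adjusted p = 4.28e-05), less than the median gene, and its change turned to 0.30 with TMM scaling. In matPlag1KO it fell by 1.98 ± 0.24 (adjusted p = 3.34e-11) and rose again by 0.81 ± 0.24 at 8c (adjusted p = 0.00413). H3f3a rose in WT by 1.12 ± 0.34 (adjusted p = 0.00303) and then by 1.38 ± 0.36 (adjusted p = 0.00101). In matPlag1KO its first change was -0.20 ± 0.36 (adjusted p = 0.635; 1.60 and called with TMM) and the second 2.02 ± 0.39 (adjusted p = 9.07e-06). Both genes have processed pseudogene copies, between which reads could have been divided.

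H3f3b made up 92.1 ± 6.18% of H3.3 counts in WT oocytes (SD, n = 16), 68.1 ± 3.08% at 2c (n = 11) and 43.1 ± 6.41% at 8c (n = 15). The steps of -24.0 and -25.0 points each had p = 2e-05, the smallest the resamples allow (adjusted p = 1e-04, permutation test). In matPlag1KO the shares were 89.6, 70.7 and 49.5%. The genotype differences of -2.51, 2.60 and 6.36 points did not pass (adjusted p = 0.363, 0.220 and 0.151).

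**Figure D2:**
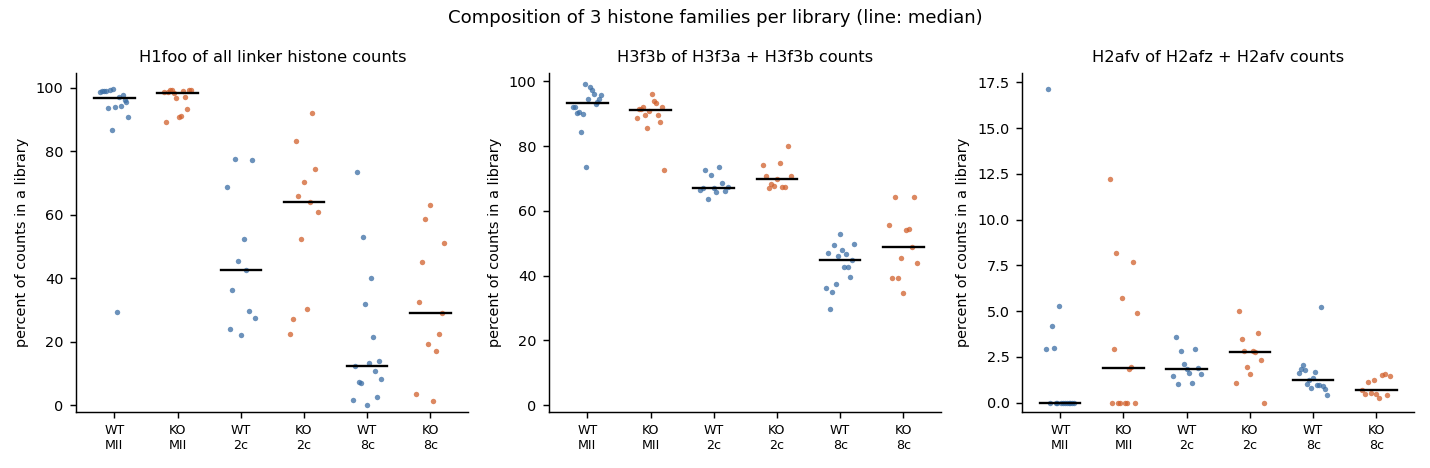
Percent of counts within each library for H1foo among all linker histone counts, H3f3b among H3f3a plus H3f3b counts and H2afv among H2afz plus H2afv counts, by stage and genotype; points are single oocytes or embryos, lines are medians and the y axes differ. The WT medians of the H3f3b share go from 93.2% to 67.2% and 44.7%, while the H1foo share spreads from 22.2% to 77.4% among WT 2c embryos.

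The H2A.Z genes had the largest rises of the 10 from MII to 2c. H2afz had 0.207, 0.392 and 0.826 counts per 100 spike-in counts in WT oocytes, 2.94, 6.05 and 8.996 in 2c embryos, then 4.81, 8.06 and 10.5 at 8c. No WT 2c embryo came down to the highest WT oocyte, whereas 2c and 8c overlapped. H2afz rose by 3.79 ± 0.26 from MII to 2c in WT (adjusted p = 3.35e-23) and differed by 0.33 ± 0.25 from 2c to 8c (adjusted p = 0.265), which turned to a called -0.57 with TMM. In matPlag1KO the median went from 0.432 in oocytes to 2.25 and 6.19, rising by 2.55 ± 0.26 (adjusted p = 2.34e-14) and again by 1.28 ± 0.27 (adjusted p = 4.63e-05). H2afv was much lower, with 16 counts over 16 WT oocytes, 128 over 11 WT 2c embryos and 193 over 15 WT 8c embryos. It rose by 3.50 ± 0.56 in WT (adjusted p = 1.04e-07) and by 2.16 ± 0.57 in matPlag1KO (adjusted p = 0.00064) from MII to 2c. H2afv took 2.03 ± 4.40, 1.99 ± 0.81 and 1.504 ± 1.13% of H2A.Z counts in WT (SD), without a step that passed (adjusted p = 0.883 and 0.363, permutation test), although in pool B alone, where no WT oocyte had an H2afv count, the first step was 1.85 points (exact permutation test, adjusted p = 0.00155). The H2afv share at 8c was 0.878% in matPlag1KO, -0.63 points from WT (p = 0.0499, permutation test, adjusted p = 0.150).

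H2afy, the macroH2A1 gene, dipped at 2c. It had 155 counts in 12 of 16 WT oocytes, 6 counts in 2 of 11 WT 2c embryos and 111 counts in 14 of 15 WT 8c embryos. The gene fell by 3.65 ± 0.88 from MII to 2c (adjusted p = 0.000208, not called with TMM) and rose by 3.20 ± 0.88 to 8c (adjusted p = 0.00161). KO-labelled 2c embryos had 2 counts in all, a ratio of 59.2 (exact 95% interval 16.1 to 493) for oocytes and of 18.9 (4.88 to 162) for 8c embryos over them, per spike-in count. H2afx, the substrate of the DNA break kinases, had 73 counts over the WT oocytes, 36 at 2c and 550 at 8c. It rose from 2c to 8c by 3.24 ± 0.75 in WT (adjusted p = 0.000202) and by 2.22 ± 0.73 in matPlag1KO (adjusted p = 0.00849), with 0.0119 and 0.239 counts per 100 spike-in counts as the WT medians.

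Cenpa had its highest WT median at 2c and its course differed between the genotypes. WT oocytes had 0.142, 0.506 and 0.818 counts per 100 spike-in counts, WT 2c embryos 0.525, 1.61 and 3.16 and WT 8c embryos 0.504, 1.25 and 2.49. All but 1 of the WT 2c embryos, replicate libA.D4, were above the oocytes, and 2c and 8c overlapped. The rise from MII to 2c in WT was 1.77 ± 0.29 (adjusted p = 1.25e-07). KO oocytes had 0.464, 0.793 and 1.42, KO-labelled 2c embryos 0.133, 0.657 and 1.18 and matPlag1KO 8c embryos 0.436, 0.689 and 1.90. Here the difference from MII to 2c was -0.47 ± 0.30 (adjusted p = 0.164), and it turned to a called 1.26 with TMM, against 3.10 in WT on that scale. Neither genotype changed past the threshold from 2c to 8c (-0.38 ± 0.29 and 0.45 ± 0.32).

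The second question was whether loss of maternal Plag1 altered these RNAs at a given stage. Within a stage, levels are given in CPM and tests used TMM scaling. In oocytes none of the 10 genes was called, where 0.781% of all genes were, but H1foo was called within pool B alone, as given below. At 2c, 2 of 10 were called, Cenpa and H2afz, both lower, where 4.92% of all genes were called in either direction. At 8c none was called, where 1.74% of all genes were. At an unadjusted p under 0.05 the count was 0 in oocytes and 1 at 8c (Cenpa), and DESeq2 also called 0 at both stages.

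**Figure D3:**
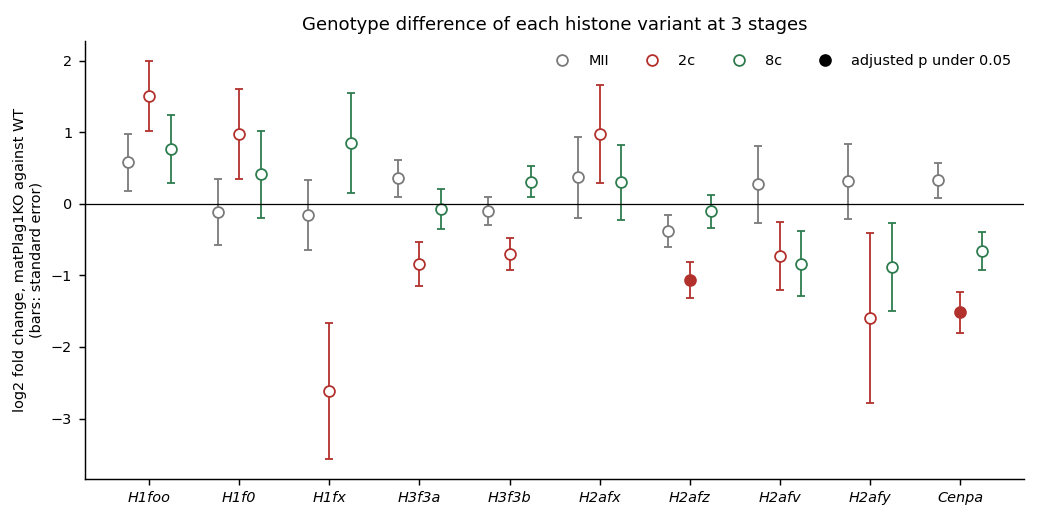
Log2 fold change of matPlag1KO (KO at MII) against WT, with standard error bars, for the 10 genes at MII (grey), 2c (red) and 8c (green); filled points passed an adjusted p of 0.05. Only H2afz and Cenpa at 2c are filled, at -1.07 and -1.52, and the wide bars of H1fx and H2afy at 2c go with 1 and 2 counts in the KO-labelled group.

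Cenpa had 299, 841 and 1183 CPM in the 11 WT 2c embryos and 87.7, 259 and 724 CPM in the 11 KO-labelled ones. All 11 KO-labelled embryos were below the WT median, 7 of them were below the lowest WT embryo, and 8 of 11 WT embryos were above the highest KO-labelled one, so that the ranges still overlapped. Means were 859 ± 257 and 301 ± 175 CPM (SD), and the log2 fold change was -1.52 ± 0.28 (SE; adjusted p = 0.000513). Within pool A it was -1.51 (adjusted p = 0.434) and within pool B -1.52 (adjusted p = 0.0110). Leaving out each 2c library in turn gave -1.73 to -1.43, called in 22 of 22 fits. In pool A alone no gene of the table was called at 2c by edgeR, and 1339 genes had an unadjusted p under 0.05.

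The same genotype contrast was 0.33 ± 0.24 for Cenpa in oocytes, where KO had 66.1, 106 and 244 CPM and WT 36.6, 85.6 and 219 CPM, and -0.66 ± 0.26 at 8c, where matPlag1KO had 166, 205 and 359 CPM and WT 203, 332 and 539 CPM. At 8c, 10 of 11 matPlag1KO embryos were below the WT median, but the adjusted p was 0.197 (-0.62 and called when the 8c libraries were fitted alone). The difference between the 2c and oocyte contrasts was -1.84 ± 0.37 (adjusted p = 0.00119), the 1 call among the 10 genes, where 3.31% of all genes were called. The difference between the 2c and 8c contrasts was -0.86 ± 0.38 (adjusted p = 0.205). None of the 10 genes was called in it by edgeR (2.3% of all genes were), 4 had an unadjusted p under 0.05 (H1fx, H3f3b, H2afz and Cenpa), and DESeq2 called H3f3b and H2afz.

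H2afz had 1672, 3262 and 3862 CPM in WT 2c embryos and 674, 1001 and 3695 CPM in KO-labelled ones. Of the KO-labelled embryos 10 of 11 were below the WT median and 8 below the lowest WT embryo, and the highest, replicate libA.D6, lay within the WT range. Means were 3084 ± 707 and 1474 ± 943 CPM, with a log2 fold change of -1.07 ± 0.25 (adjusted p = 0.00589). It was -0.77 within pool A (adjusted p = 0.591) and -1.39 within pool B (adjusted p = 0.00804). Leaving out each 2c library gave -1.31 to -0.99, called in 22 of 22 fits, but with all 90 libraries it was -0.69 (adjusted p = 0.199). In oocytes the contrast was -0.38 ± 0.22 and at 8c -0.10 ± 0.23, and neither differed from that at 2c past the threshold (adjusted p = 0.260 and 0.0959). The difference between 2c and MII was -1.24 and called (adjusted p = 0.0424) with spike-in library sizes.

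H1foo was higher in some KO-labelled 2c embryos. WT had 45.6, 123 and 202 CPM and the KO-labelled group 48.7, 143 and 1611 CPM. Of the KO-labelled embryos 5 of 11 exceeded the highest WT embryo, while the others lay inside the WT range. The log2 fold change was 1.51 ± 0.49 (adjusted p = 0.0540), and 0.89 (adjusted p = 0.293) without replicate libB.D6, the highest. It passed with DESeq2 (1.70, adjusted p = 0.0117), with RLE factors (1.70, adjusted p = 0.0233), with pool as a term (1.52, adjusted p = 0.0412) and with the 2c libraries alone (1.60, adjusted p = 0.00606). At 8c all 11 matPlag1KO embryos were above the WT median of 13.8 CPM, at 14.2, 47.4 and 136 CPM against 0, 13.8 and 174 CPM in WT, with 0.76 ± 0.47 (adjusted p = 0.486). The summed oocyte markers given above were also higher in the KO-labelled 2c and matPlag1KO 8c groups by their medians, and their part in the H1foo difference was not tested.

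In oocytes H1foo had 558, 2798 and 16507 CPM in WT and 1167, 10006 and 14595 CPM in KO. The contrast was 0.58 ± 0.40 (adjusted p = 0.704). Within pool A, where WT had a median of 10843 and KO of 10935 CPM, it was 0.21 (adjusted p = 0.952). Within pool B, where the medians were 2362 and 5450 CPM, it was 1.57 (adjusted p = 0.0491). All 8 WT oocytes of pool B belonged to the low set.

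**Figure D4:**
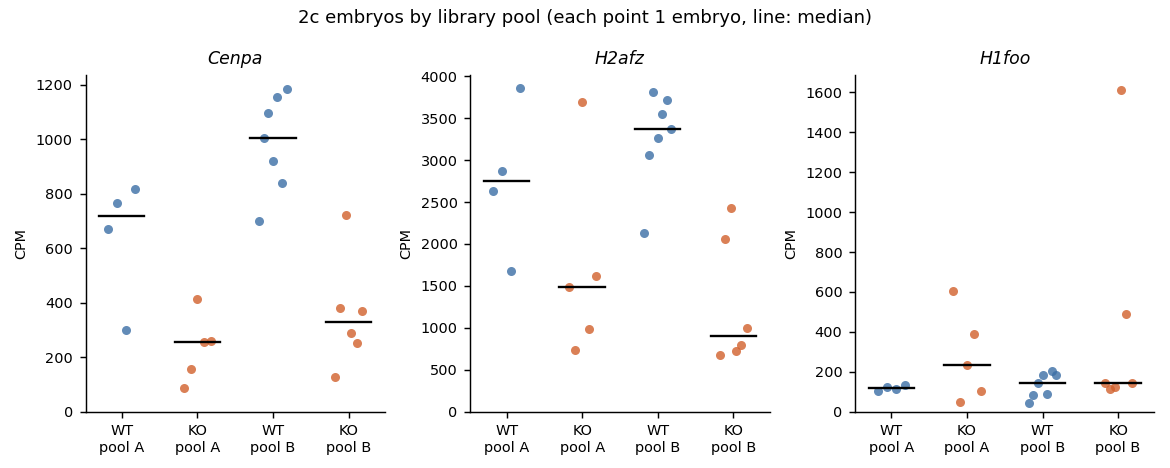
CPM of Cenpa, H2afz and H1foo in single 2c embryos by library pool, with WT in blue, the KO-labelled group in orange and the median as a line; the y axes start at 0 and differ. Cenpa medians are 717 and 256 CPM in pool A and 1005 and 329 CPM in pool B, and 1 KO-labelled embryo of pool B stands at 1611 CPM for H1foo.

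The other 7 genes did not pass at 2c. H3f3b had 3108, 4653 and 5929 CPM in WT and 1342, 2470 and 4806 CPM in the KO-labelled group, with 10 of 11 below the WT median and a log2 fold change of -0.70 ± 0.23 (adjusted p = 0.0544). H3f3a had 1166, 2071 and 3093 CPM against 579, 965 and 2376 CPM, with 9 of 11 below the WT median and -0.83 ± 0.31 (adjusted p = 0.0904). Both H3.3 genes thus had lower medians and overlapping ranges. H2afv was at -0.73 ± 0.47 (adjusted p = 0.372), H1f0 at 0.98 ± 0.63 (adjusted p = 0.363) and H2afx at 0.98 ± 0.69 (adjusted p = 0.424). H1fx had 7 counts in WT and 1 in the KO-labelled group (fitted value -2.62, adjusted p = 0.120; ratio 7.90, exact 95% interval 1.02 to 356), and H2afy 6 and 2 counts (fitted value -1.59, adjusted p = 0.466; ratio 3.39, 0.606 to 34.3). Without KO-labelled replicate libA.D6, H3f3a, H3f3b and H1foo joined Cenpa and H2afz, and without libB.D5, H3f3b and H1foo did. As libA.D6 was the highest of its group in H3f3a and H3f3b, leaving it out lowers that group by construction. Over the 22 fits that left out a 2c library, H1foo was called in 6, H3f3b in 3 and H3f3a in 1. The median of all genes in this contrast was 0.12 with TMM and 0.31 with RLE factors.

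Sums of stage markers also differed between the genotypes at 2c by their medians. The summed level of 8 markers of the 8-cell embryo (Krt8, Cdx2, Tead4 and others) was 360, 524 and 1367 CPM in WT 2c embryos and 169, 223 and 442 CPM in KO-labelled ones. Krt8 went against the sum, at 0 in WT and with counts in the KO-labelled group, and the other markers were not read singly. At 8c the sum was 1880, 2351 and 3054 CPM in WT and 1047, 1555 and 2064 CPM in matPlag1KO. In oocytes its medians were 287 CPM in WT and 313 CPM in KO, above the KO-labelled 2c median. The sum is thus not particular to the 8-cell embryo. The 10 measured 2-cell markers, of the Zscan4 and related families, had medians of 200 and 470 CPM at 2c and 2.48 and 4.06 CPM at 8c, with Zscan4f, Tcstv1 and Tcstv3 at 0 in both 2c groups. The part of developmental timing in the Cenpa and H2afz differences was not tested.

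**Figure D5:**
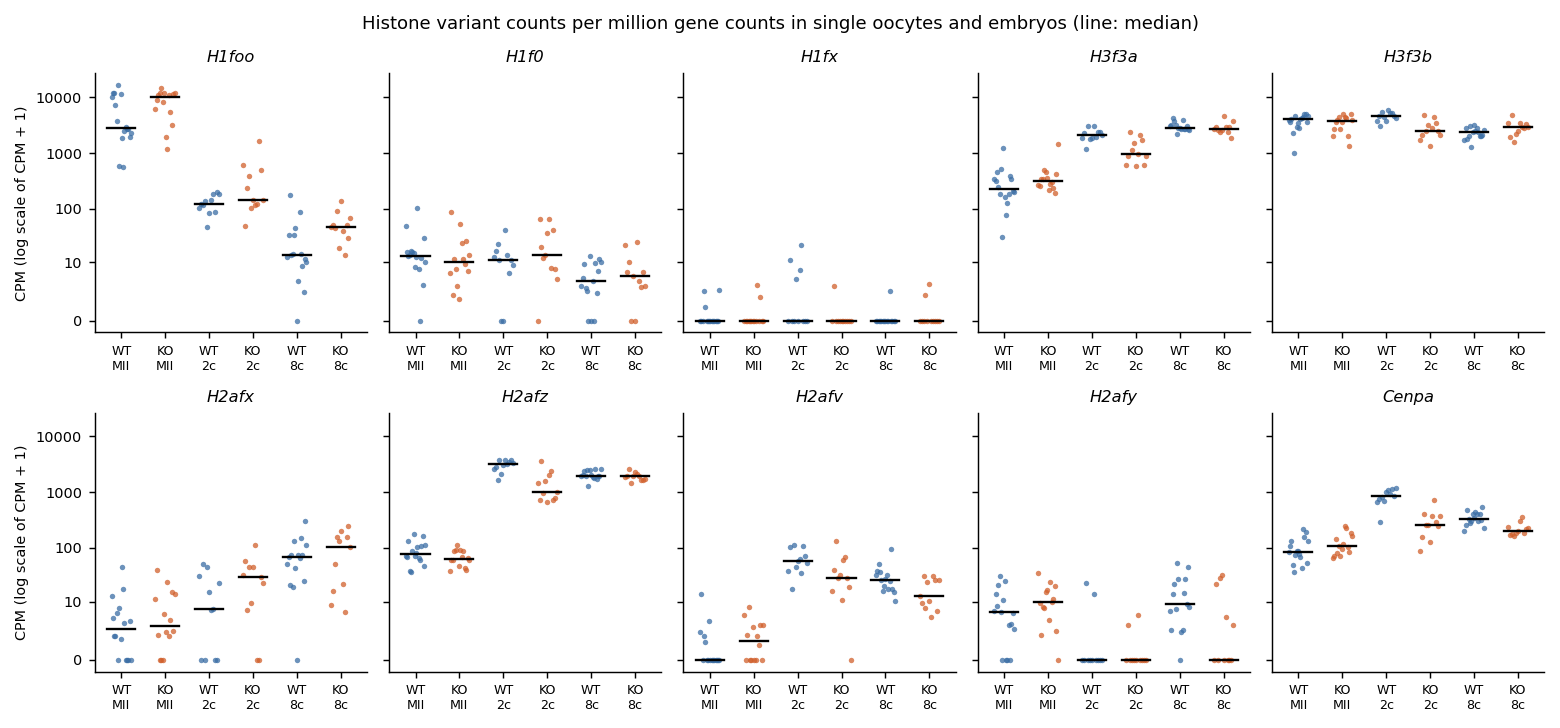
CPM (log axis of CPM + 1) of the 10 genes in each kept library by stage and genotype, with medians as lines. At 2c the WT medians of Cenpa (841 CPM) and H2afz (3262 CPM) stand above those of the KO-labelled group (259 and 1001 CPM), and H1fx and H2afy lie at 0 in most 2c embryos.

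The genes that handle these variants were described by lists chosen for their function. Of 6 genes for CENP-A deposition, Oip5 and Mis18a, subunits of the complex that licenses the centromere, were lower in KO-labelled 2c embryos at -1.29 ± 0.41 and -1.37 ± 0.43 (adjusted p = 0.0464 and 0.0444), and the median of the 6 was -0.73. Oip5 had 43.7, 131 and 441 CPM in WT and 0, 55.4 and 228 CPM in the KO-labelled group, and Mis18a 17.2, 90.1 and 248 CPM against 0, 32.5 and 161 CPM. The ranges of both overlapped. None of the 6 was called at the other stages. Of all genes, 4.92% were called at 2c, 0.781% at MII and 1.74% at 8c. In WT, Oip5 rose from MII to 2c by 5.12 ± 0.50 (adjusted p = 3.18e-15) whereas 4 others fell (51.3% of all genes fell), among them Hjurp, the CENP-A chaperone, at -2.47 ± 0.61 (adjusted p = 0.000331).

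Of 11 genes for H2A.Z deposition and removal, Ruvbl1, an ATPase of several remodelling complexes, was lower in KO-labelled 2c embryos at -1.26 ± 0.30 (adjusted p = 0.00673), and Vps72, the H2A.Z-binding subunit, was higher at 1.12 ± 0.31 (adjusted p = 0.0227). The median of the list was -0.25, and 4.92% of all genes were called at 2c. Ruvbl1 had 127, 311 and 531 CPM in WT and 59.9, 114 and 223 CPM in the KO-labelled group, and Vps72 5.75, 31.2 and 55.9 CPM against 16.2, 53.5 and 184 CPM. In WT these 2 genes also moved apart between MII and 2c, Ruvbl1 rising by 1.60 ± 0.30, while Vps72 fell by 4.38 ± 0.40. At 8c none of the 11 was called, where 1.74% of all genes were.

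None of the 9 genes for H3.3 deposition was called between genotypes at any stage, where 0.781%, 4.92% and 1.74% of all genes were at MII, 2c and 8c. From MII to 2c in WT 7 of the 9 fell and Hira rose, with a median of -2.22 for the list, where 51.3% of all genes fell, 14.1% rose and their median was -1.46. Atrx fell by 3.34 ± 0.33 (adjusted p = 9.94e-15) and Daxx by 4.51 ± 0.77 (adjusted p = 4.57e-07), and both then rose from 2c to 8c. Of the other linker histones, 5 of 6 were tested. Of these, 4 rose from 2c to 8c in WT, with a median of 3.22 for the list, where 31.9% of all genes rose and their median was 0.53. Hist1h1b rose by 4.14 ± 0.69 (adjusted p = 3.77e-07), from 7 counts in 3 of 11 WT 2c embryos to 238 over 15 WT 8c embryos. Hist1h1a was called higher in matPlag1KO at 8c (2.38 ± 0.63, adjusted p = 0.0302), but its medians were 18.1 CPM in WT and 25.6 CPM in matPlag1KO and 1 embryo had 1745 CPM. The call was not computed without that embryo.

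The genes whose levels went most like each of the 10 were found by Pearson's r on log2(CPM + 1) over the 78 kept libraries, which share stages and pools, so r describes these libraries only. H2afz was nearest to Gm11974 (0.967), Slfn4 (0.966) and Mak16 (0.965), H3f3a to Rpl36al (0.944), Tomm22 (0.940) and Trappc4 (0.939), and H1foo to Gm6981 (0.936), Rgs2 (0.934) and E330021D16Rik (0.933). H2afv was nearest to Kdm4c (0.874), Sult2b1 (0.868) and AK010878 (0.868), and H3f3b to Magoh (0.810), Apitd1 (0.740) and Birc5 (0.711). Cenpa was nearest to Oip5 (0.841), a gene of its own deposition list, then Mad2l1bp (0.831) and Bzw1 (0.829). Among the 10 genes themselves, H2afz went with H3f3a (0.866), H2afv (0.840) and Cenpa (0.804) and against H1foo (-0.862), while H3f3a and H3f3b were at -0.094. For H2afx (Psap 0.713, Myadm 0.710, Ocln 0.709), H2afy (Sf3a2 0.611, Anxa2 0.608, Alas1 0.600), H1fx (Marc1 0.566, Dbx1 0.517, Tgm1 0.514) and H1f0 (Ptprt 0.522, Desi2 0.508, Gm10248 0.506), many libraries were at or near 0.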

How the data were processed

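Count data of single oocytes and embryos were used as deposited. Per the labels and the study's methods, the authors demultiplexed the reads, joined molecular identifiers, mapped to mm9 with TopHat and counted tags over annotated genes with HOMER. Tool versions and use of strand are not given in the sources used here. The deposited counts are whole numbers per gene, with 92 spike-in RNAs in rows of their own that were kept out of gene totals. Expressed genes were those reaching 1 CPM in 5 or more libraries. A library was kept where its median over such genes was 1 CPM or higher, and 12 of 90 were left out. Genes expressed by this rule in the kept libraries were tested with edgeR 4.0.16 (glmQLFit and glmQLFTest, R 4.3.3) in 1 fit of 6 groups with Benjamini-Hochberg adjustment over all genes. SE is the absolute log2 fold change over the square root of F. TMM served within a stage and spike-in totals between stages. Shares used libraries with at least 10 counts in the denominator and permutation tests (scipy 1.17.1). Alternatives were DESeq2 1.42.0, RLE or other scaling, no filter, each pool, pool or well terms, single stages and 2c libraries left out in turn, the last added after seeing the data. Scripts were tested on simulated data. The text names the 10 genes, Plag1, the nearest genes by r and at most 4 genes per list and comparison by lowest p. The genes and lists were chosen with earlier results of these data known. No 2 kept libraries of the same group agreed within sampling noise, and other pairs were not compared. Motifs were searched on both strands.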

Additional observations from a re-analysis of the deposited data

Results flagged for a closer look

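The genotype contrast of Cenpa differed between stages. It was 0.33 ± 0.24 in oocytes and -1.52 ± 0.28 in 2c embryos (log2, SE), and the interaction term was -1.84 (edgeR quasi-likelihood test, adjusted p = 0.00119). With spike-in library sizes the term was -2.24 (adjusted p = 0.000474), within pool A -1.70 and not called, and it stayed between -2.06 and -1.76 and was called in all 22 fits that left out a 2c library. The summed markers of the 8-cell embryo were also lower at 2c (medians of 524 CPM in WT and 223 CPM in KO-labelled embryos). Among them Krt8 had counts at 2c only in the KO-labelled group. The part of these markers was not tested. The same sum had medians of 287 CPM in WT and 313 CPM in KO oocytes.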

How the results depend on the processing

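The number of the 10 genes called changed in these settings. In oocytes it was 1 (H1foo) in pool B alone and 1 (H1foo, 0.73) with well as a replicate block and pool as a term, against 0. Same-numbered wells of the 2 genotypes correlated from -0.0998 to 0.796 over 14 pairs, with a median of 0.392 against -0.0231 for other wells, and 11 of 14 WT oocytes correlated best with their own well. The 2 libraries of each pair came from different pools. Not every pair correlated, the labels name no source shared by well position, and a cause was not tested. That fit, of oocytes alone with pool as a term and 12978 genes tested, called 792 genes, against 46 for oocytes alone without either term and 129 in the fit of 6 groups. At 2c the number was 1 with all 90 libraries and 0 in pool A, against 2, and 2 to 5 over the fits leaving out a library. At 8c it was 1 (Cenpa) with that stage alone. From 2c to 8c it was 1 in pool A and 8 with TMM in WT, against 4, and 2 in pool A in matPlag1KO, against 6. In the interaction of 2c with MII it was 2 with spike-in library sizes, 0 in pool A and 2 in pool B, against 1, and 1 to 2 leaving out a library. In that of 2c with 8c it was 2 with DESeq2, against 0, and 0 to 2 leaving out a library. Among called values, signs turned for H3f3b from MII to 2c in WT (0.30) and H1f0 in matPlag1KO (0.43), both with TMM. Among values not called in the first place, Cenpa (1.26), H3f3a (1.60) and H2afx (1.85) from MII to 2c in matPlag1KO and H2afz from 2c to 8c in WT (-0.57) turned and were called with TMM. Among shares, the sign turned for H1foo between genotypes at 2c in pool A (-1.34 points), for H3f3b between genotypes in oocytes in pool A (1.04), and for H2afv from MII to 2c in WT with all 90 libraries (0.83) and in pool B (1.85). The H1foo share from 2c to 8c no longer passed with a minimum of 30 counts (-25.6) or in pool A (-24.9), and the H3f3b share in oocytes of pool B (-6.07), the H2afv share at 8c in pool A (-0.74) and the turned H2afv share in pool B newly passed. Over all genes at 2c, calls were 285 with spike-in library sizes and 0 in pool A, against 812, and higher calls were 721 of 994 with RLE factors against 379 of 812. At 8c they were 106 with spike-in sizes, 6 in pool A and 46 in pool B, against 287, and in oocytes 82 with DESeq2, 463 in pool B and 46 with that stage alone. For the interactions they were 312 (spike-in sizes) and 39 (pool A) against 546, and 92, 0 and 170 (pool B) with 654 (DESeq2) against 380. From 2c to 8c in WT they were 4026 in pool A against 7950, and in matPlag1KO 4306 against 8025. The cause of these changes was not tested. H1fx and H2afy rest on 7 or fewer counts per 2c group, and their 2c contrasts are imprecise.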

Other observations

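Genes that phosphorylate, dephosphorylate or read H2AX formed a list of 9. None was called between genotypes at any stage, with medians of 0.27, -0.14 and 0.43 (log2) at MII, 2c and 8c. Of all genes, 0.781%, 4.92% and 1.74% were called at these stages. In WT, Prkdc, a kinase of the DNA break response, rose from MII to 2c by 2.48 ± 0.68 (edgeR, adjusted p = 0.00107), while 5 of the 9 fell, where 51.3% of all genes fell. Prkdc had 9 counts over 16 WT oocytes and 38 over 11 WT 2c embryos. Eya3, a phosphatase that acts on H2AX, fell by 3.13 ± 0.45 (adjusted p = 7.12e-09). From 2c to 8c Eya2 rose by 1.71 ± 0.68 (adjusted p = 0.0321) and Eya4 fell by 3.34 ± 0.77 (adjusted p = 0.000197). Both rest on few counts, with 5 at 2c and 32 at 8c for Eya2 and 12 and 0 for Eya4.

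Of 10 other histone variants, 6 were tested and none was called between genotypes, where 0.781%, 4.92% and 1.74% of all genes were at MII, 2c and 8c. In WT, H2afj, an H2A variant, rose by 2.43 ± 0.60 from MII to 2c (adjusted p = 0.000292) and by 2.40 ± 0.55 from 2c to 8c (adjusted p = 0.000159). It had 11, 43 and 377 counts in all at these stages. Hist1h2ba, the testis H2B gene, fell by 3.11 ± 0.88 from MII to 2c (adjusted p = 0.00163). This rests on few counts, with 17 in 3 of 16 WT oocytes and 0 over 11 WT 2c embryos.

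Of the libraries left out, KO oocyte replicate libB.A7 was the deepest, with 231731 gene counts. It held 250 counts of H1foo, 1001 of H3f3b and 7 of H3f3a.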
